A study of Mus musculus with 6 samples.

Results

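The mitochondria-rich cells of GL261, a mouse glioma line grown with serum, are the barcodes in which mitochondrially encoded RNA took an unusually large share of few molecules. They were chosen from the 10066 GL261 barcodes with at least 2500 unique molecular identifiers (UMIs, counted RNA molecules) and at least 500 genes, as those in which genes of mitochondrial DNA (symbols starting with mt-) gave at least 3% and under 10% of the UMIs. That rule found 867 cells, 483 in replicate 1 and 384 in replicate 2, of 32236 barcodes with the same minimum in the whole series. They were compared with the 8036 GL261 cells of the same 2 libraries (3824 and 4212) whose mt- share was from 0.5% to under 2%.

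The series holds 6 libraries of 5' droplet single-cell RNA-seq: 2 of GL261 in a differentiation medium with fetal calf serum, and 4 of GL261-GSCs, labelled as glioblastoma stem cells and kept in a defined medium for such cells. No genetic change or drug is given for either culture. The labels' protocol names Accutase dissociation, a lysis buffer with IGEPAL CA-630 and capture of cells or nuclei, and which of these was loaded is not given for a sample. "Cell" below means a barcode that passed the minimum, and the label replicate does not say whether cultures were separate, so p-values measure only the spread between these libraries, which may be technical.

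Mitochondrial DNA encodes the RNAs of the mitochondrial ribosome and a small set of core subunits of the respiratory chain. All other respiratory chain subunits, the proteins of the mitochondrial ribosome and the import machinery are encoded in the nucleus, translated in the cytosol and imported. Malat1 and Neat1 are long noncoding RNAs that stay in the nucleus, and the share of mt- RNA is widely used as a quality measure of droplets.

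The mt- share is what chose the cells, so the following values are a description with no test. Its median was 4.90% of UMIs in the mitochondria-rich cells of replicate 1 and 5.70% in replicate 2, against 0.956% and 0.928% in the comparison cells. The cells were shallow: their median depth was 5340 and 4327 UMIs, against 16725 and 14342. Only 9 and 5 of the mitochondria-rich cells lay above the median depth of their library's comparison cells. The number of mt- UMIs per cell was higher in absolute terms, with medians of 278 and 256.5 against 157 and 130, a ratio of 1.77 and 1.97. UMIs of all other genes had medians of 5033 and 4060 against 16561 and 14209, so that the mitochondria-rich cells held 30.4% and 28.6% of the comparison level. Whether a droplet held less RNA or captured less of it cannot be told apart from these counts.

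**Figure D1:**
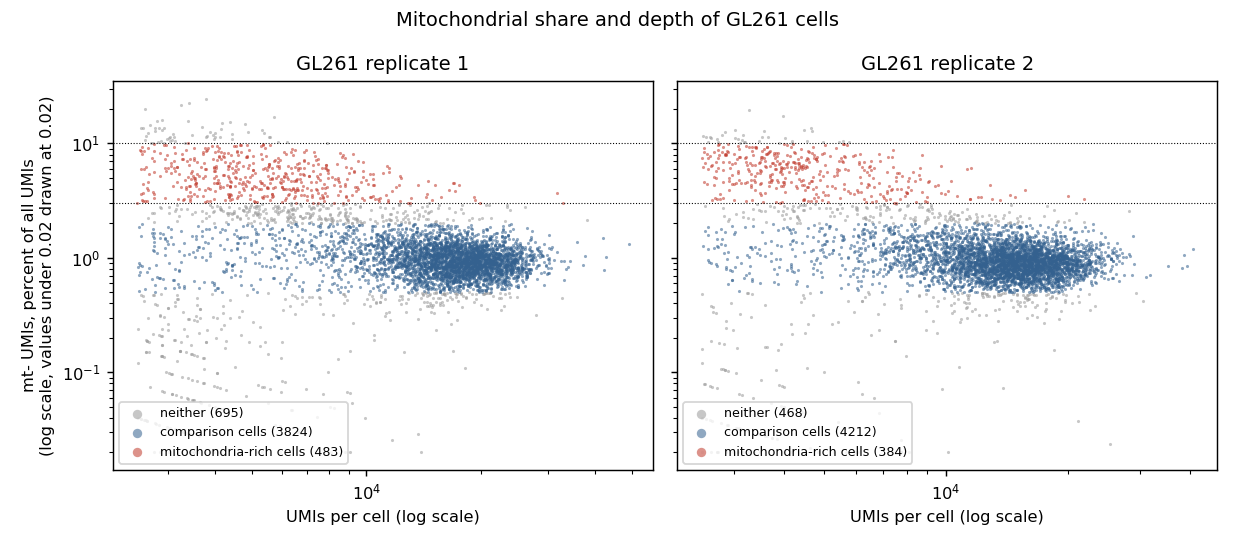
Each point is a GL261 barcode with at least 2500 UMIs and 500 genes; the x axis is its UMI count and the y axis its mt- share in percent, both on log scales, with dotted lines at 3% and 10%. The mitochondria-rich cells (red, 483 and 384) lie mostly below 10000 UMIs, whereas the comparison cells (blue, 3824 and 4212) centre on medians of 16725 and 14342 UMIs.

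The rule's thresholds cut a continuous range. Just inside the lower limit, at 3.0% to under 3.2%, lay 30 and 20 cells with a median depth of 6896 and 5029 UMIs. Just outside it, at 2.8% to under 3.0%, lay 36 and 21 cells with 7520 and 5869 UMIs. At the upper limit 23 and 24 cells had 9% to under 10%, and 16 and 17 cells had 10% to under 11%. By depth, the mitochondria-rich cells made up 34.5% and 45.6% of barcodes with 2500 to under 5000 UMIs, 28.4% and 14.4% of those with 5000 to under 10000, and 1.72% and 0.483% of those with 10000 to under 20000.

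Of 11 mt- genes with at least 100 UMIs in each class and library, 8 had shares of mt- UMIs that did not overlap between the classes, 4 higher and 4 lower in the mitochondria-rich cells. That share is near the 71.9% of all other genes tested whose class values did not overlap, as given with the gene levels. Cytochrome b (mt-Cytb) gave 30.8% and 29.8% of the mt- UMIs of the mitochondria-rich cells, against 34.2% and 34.4% in the comparison cells. The large mitochondrial ribosomal RNA, mt-Rnr2, gave 20.7% and 19.3% against 16.6% and 14.4%. The ATP synthase subunit mt-Atp8 gave 4.44% and 7.03% against 3.19% and 4.88%, with replicate 2 above replicate 1 in both classes, so that its classes overlapped. The other genes without overlap were mt-Rnr1, mt-Nd2 and mt-Nd6, higher in the mitochondria-rich cells, and mt-Nd1, mt-Nd4 and mt-Nd5, lower. The subunit of complex I mt-Nd1, for example, gave 9.72% and 9.47% against 11.5% and 11.2%. The oxidase subunit mt-Co1 stayed near the same share, with 16.7% and 17.2% against 16.4% and 17.5%. A few coding genes were hardly counted, and the cause was not tested. In all UMIs of the mitochondria-rich cells mt-Co2 had 35 and 12, mt-Atp6 31 and 11, mt-Co3 5 and 2, and mt-Nd3 5 and 3.

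All 6 markers of the glioma line (Vim, Nes, Cd44, Sox2, Ly6a and Nrp1) were present in both classes, with a summed level of 11759 and 12889 CPM (a gene's UMIs scaled to a common library total) in the mitochondria-rich cells and 15616 and 16309 in the comparison cells. Of 6 lists of markers of other cell types, 5 were near 0 and the oligodendrocyte list was not. The 6 microglia and macrophage markers summed to 5.47 and 13.8 CPM against 12.5 and 11.4, with Ptprc, Aif1, Tyrobp and C1qa at 0 in the mitochondria-rich cells of replicate 1 and Ptprc, Cx3cr1, Tyrobp and C1qa at 0 in those of replicate 2. The 5 neuron markers summed to 0 against 0.132 and 0.120 CPM. The 5 endothelial markers summed to 6.56 and 4.15 CPM against 1.19 and 0.240. The cells held 18 and 8 UMIs of these markers in all, against 74 and 42. Kdr, Cldn5 and Tie1 were at 0 in the mitochondria-rich cells, and also in the comparison cells of replicate 2. The 1 endothelial marker tested rose by 2.46 on the log2 scale, a call not kept with no replicate block. The 5 fibroblast and pericyte markers summed to 4.37 and 6.91 CPM against 4.36 and 5.16, with Lum, Rgs5 and Kcnj8 at 0 in both classes. The 5 red cell markers summed to 1.09 and 1.38 CPM against 0.132 and 0.120. The 5 oligodendrocyte markers summed to 294 and 380 CPM against 174 and 250, with Mobp at 0 in the mitochondria-rich cells of both libraries, and 9 markers of the stem cell culture to 27.3 and 20.7 against 10.3 and 5.16. Their part in the results was not tested. The 2 GL261 libraries shared 35 barcodes where chance gives 34.4, and none of them was mitochondria-rich in both. Doublets were not removed. Free RNA, read from barcodes with 100 to under 1000 UMIs, had an mt- share of 0.603% and 0.283%, below that of both classes.

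To compare cells of unequal depth, every cell was thinned to 2000 UMIs drawn without replacement, and mt- genes were then left out. At that depth the mitochondria-rich cells showed a median of 1291 and 1284 genes per cell, against 1217 and 1216 in the comparison cells, a difference of 74 and 68 genes. The classes did not overlap in these medians. In the 4 GL261-GSCs libraries the same classes differed by more, with 1345 to 1356 genes against 1165 to 1243. Over all 6 libraries the mean difference was 119 ± 46.1 genes (SD, n = 6), positive in 6 of 6 libraries, with an exact sign-flip permutation p of 0.03125 (2-sided), the smallest that 6 pairs can give. Without thinning the sign was opposite, with 2542 and 2271.5 genes against 4731.5 and 4363.5.

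Gene levels were compared between sums of the thinned UMIs over each class of each library, which held 966000 and 768000 UMIs for the mitochondria-rich cells and 7648000 and 8424000 for the comparison cells, mt- UMIs included. Of 13459 genes tested with edgeR's quasi-likelihood test, 2842 rose in the mitochondria-rich cells (21.1% of genes tested) and 3626 fell (26.9%), so that 48.1% passed an adjusted p of 0.05. The values of the classes did not overlap over both libraries for 71.9% of all genes tested. The split between rises and falls depended on the scaling. With TMM (trimmed mean) scaling all genes had a median change of -0.0056 on the log2 scale, and 43.9% of the called genes rose. With library size alone the median was 0.44, and 5202 genes rose against 2035 that fell, so 71.9% of called genes rose. Values below are on the TMM scale, and list counts that turn under library size scaling are given on both. Counts in gene lists stand against the 21.1% of rises and 26.9% of falls over all genes tested. All gene lists were chosen with earlier results of these data known, so their counts and medians are descriptions and no independent test. Under library size scaling they stand against 5202 rises and 2035 falls among 13459 genes.

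Several RNAs that stay in the nucleus, Malat1 and Neat1 among them, were high in the mitochondria-rich cells. Malat1 (chromosome 19, 5795690 to 5802672, minus strand, build GRCm38), a long noncoding RNA of nuclear speckles, was at 17950 and 21145 CPM in the mitochondria-rich cells and at 4783 and 4710 CPM in the comparison cells. The means were 19547 ± 2259 and 4746 ± 51.6 (SD, n = 2), a fitted log2 fold change of 2.04 (SE 0.17), or 4.10-fold. The classes did not overlap. Free RNA held 1406 and 1046 CPM, below both classes. Malat1 and the predicted gene Gm47624 were named as markers of these cells from earlier results of the same libraries, so no p is given for either.

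The difference in Malat1 was also seen cell by cell. At 2000 UMIs the median mitochondria-rich cell held 26 and 34 Malat1 UMIs, and the median comparison cell held 6 in both libraries. The middle 90% of the mitochondria-rich cells ran from 2 to 108 UMIs in replicate 1 and from 4 to 130 in replicate 2. Above the 95th percentile of the comparison cells, at 19 and 18 UMIs, lay 60.2% and 69.8% of the mitochondria-rich cells. At or under the comparison median lay 13.7% and 8.59%, so the cells were not alike in this RNA.

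The mature Malat1 RNA is known to end in an A-rich tract written in the genome, where the longer transcript is cut, and not in an added poly(A) tail. The longest run of A on the sense strand of Malat1 is shown for this reason with 20 bases on each side, 5′ to 3′, beside those of Neat1 and Gm47624. Capitals mark the run, and positions are on GRCm38, read from GENCODE M21 transcripts.
Malat1, chr19:5795968-5796019, minus strand: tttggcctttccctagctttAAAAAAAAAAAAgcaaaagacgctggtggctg
Neat1, chr19:5835914-5835960, minus strand: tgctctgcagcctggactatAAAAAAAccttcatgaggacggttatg
Gm47624, chr10:52694486-52694531, plus strand: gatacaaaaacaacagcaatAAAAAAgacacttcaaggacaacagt
The run held 12 bases in Malat1, 298 bases before the annotated end of the transcript, 7 in Neat1 and 6 in Gm47624. A run of at least 10 A on the sense strand stood in 27.3% of the protein-coding genes tested, which is given as a description of the sequences only.

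A list of 12 nuclear long noncoding RNAs, Malat1 among them, was written with earlier results of these data known. In it 8 genes passed the filter on low counts, which a gene can pass through the class where it is high, so the members are given singly, with no count or median. Neat1 (chromosome 19, 5824708 to 5845478, minus strand), the scaffold of paraspeckles, was at 1783 and 1957 CPM against 316 and 274, with 65.3 and 40.7 CPM in free RNA. It rose by 2.67 on the log2 scale (SE 0.14, edgeR adjusted p = 5.06e-35). Kcnq1ot1 (chromosome 7, 143203458 to 143296549, minus strand), the imprinted antisense RNA that silences neighbouring genes, was at 352 and 337 CPM against 86.5 and 82.4 and rose by 2.03 (SE 0.12, edgeR adjusted p = 5.46e-32). It overlaps Kcnq1 on the other strand, and no source used here says whether the counting used strand, so the pair cannot be told apart. Dleu2, a gene outside that list and a noncoding host transcript of a microRNA cluster, was at 76.7 and 80.8 CPM against 16.3 and 15.6, and rose by 2.30 (SE 0.18, edgeR adjusted p = 1.01e-21). For Neat1, Kcnq1ot1 and Dleu2 both mitochondria-rich values lay above both comparison values. Among the rest of the list, Firre rose by 2.38 (33 thinned UMIs in the mitochondria-rich and 44 in the comparison cells of both libraries together), Miat by 1.96 (SE 0.57, 17 and 30 UMIs in the same order), Pvt1 by 1.71 and Tug1 by 1.54, and Airn had 3 UMIs in the mitochondria-rich cells and 22 in the comparison cells.

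**Figure D2:**
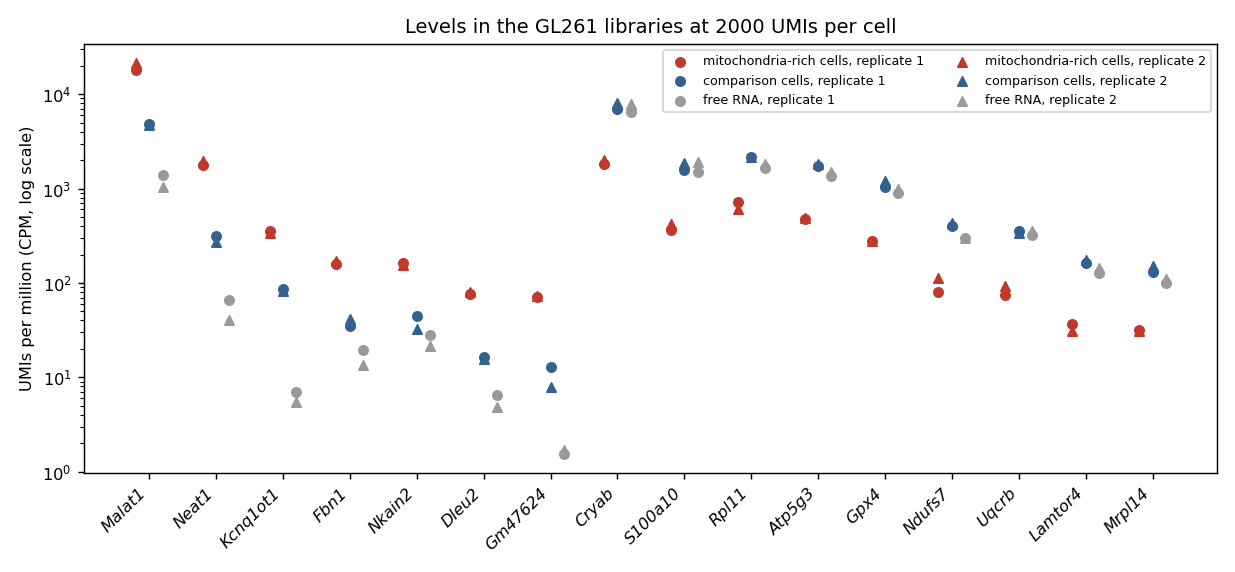
Level of 16 genes in the GL261 libraries (y axis: CPM, log scale), for mitochondria-rich cells (red), comparison cells (blue) and free RNA (grey), with circles for replicate 1 and triangles for replicate 2; class values are TMM-scaled and free RNA is not. Malat1, Neat1, Kcnq1ot1, Fbn1, Nkain2, Dleu2 and Gm47624 lie highest in the mitochondria-rich cells, and the 9 genes from Cryab to Mrpl14 lie lowest there, below both the comparison cells and free RNA.

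Gm47624 (chromosome 10, 52693838 to 52697673, plus strand) is a predicted gene of the annotation class TEC, single-exon models that await experimental evidence. It was at 71.8 and 72.5 CPM in the mitochondria-rich cells against 12.7 and 7.88 in the comparison cells, a log2 fold change of 2.81 (SE 0.24) on 134 and 132 thinned UMIs. The model lies on the same strand inside Slc35f1, a solute carrier gene, which itself was at 426 and 501 CPM against 205 and 208 and rose by 1.16 (SE 0.09, edgeR adjusted p = 1.27e-21). Of 3161 listed TEC models 637 passed the filter on low counts, which a model can pass through the class where it is high, so no count of calls is given for them. Summed over all 3161 models, tested or not, their UMIs made up 0.485% and 0.498% of the mitochondria-rich sums, against 0.105% and 0.0970% of the comparison sums. The sums rest on 4432 and 3602 thinned UMIs against 7975 and 8088, and the classes did not overlap. Reads of models inside a host gene cannot be told apart from unspliced reads of that gene.

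Nuclear-encoded subunits of the respiratory chain were low in the cells rich in mitochondrially encoded RNA. Of the 36 nuclear-encoded complex I subunits, 34 fell and 0 rose (1 under library size scaling), and the median of their log2 fold changes was -1.57. Ndufs7 (chromosome 10, 80249121 to 80256794, plus strand), an iron-sulfur subunit, was at 80.7 and 113 CPM against 399 and 433, with 296 CPM in the free RNA of each library. It fell by 2.12 on the log2 scale (SE 0.13, edgeR adjusted p = 3.44e-30), and the classes did not overlap. The subunits without a call were Ndufs1, at -0.04 (edgeR adjusted p = 0.84), and Ndufb4, at -0.07 (edgeR adjusted p = 0.88). In sum the list took 0.435% and 0.377% of the UMIs of the mitochondria-rich cells, against 0.852% and 0.864% in the comparison cells and 0.883% and 0.939% in free RNA.

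The other complexes moved the same way. Of complexes II and III, 13 of 14 genes fell and 0 rose (median -1.37), led by Uqcrb, a subunit of complex III, at 74.8 and 92.7 CPM against 357 and 338. Of complex IV all 12 fell (median -1.50), with Cox5a at 260 and 229 CPM against 754 and 840. Of complex V, the ATP synthase, 15 of 16 fell (median -1.45). Its membrane subunit Atp5g3 was at 477 and 492 CPM against 1717 and 1832 and fell by 1.87 (SE 0.13, edgeR adjusted p = 5.54e-26). In each of these genes the mitochondria-rich values lay below the comparison values in both libraries.

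Under library size scaling 1 gene of complexes II and III rose, as did 1 of the mitochondrial ribosome and 1 of the chaperone and import list described next. Proteins of the mitochondrial ribosome, which translate the mt- mRNAs, fell in 41 of 43 cases and rose in 0, with a median of -1.61 and a summed share of 0.346% and 0.335% of UMIs against 0.698% and 0.701%. Mrpl14 of the large subunit was at 31.5 and 30.9 CPM against 132 and 150 and fell by 2.17 (SE 0.17, edgeR adjusted p = 1.87e-22). Of 28 chaperones and import components, 24 fell and 0 rose (median -1.30), among them Timm13, a small chaperone between the membranes, at 189 and 229 CPM against 763 and 740. The 18 genes that copy, transcribe or process mitochondrial DNA and its RNAs showed 3 rises and 5 falls with a median of -0.10, shares near the 21.1% and 26.9% over all genes tested, and 7 rises and 3 falls with a median of 0.38 under library size scaling. Slirp and Lrpprc, the partners that stabilise mt- mRNAs, went opposite ways. Slirp was at 53.1 and 27.3 CPM against 191 and 170 and fell by 2.14 (SE 0.16, edgeR adjusted p = 1.20e-23). Lrpprc rose by 0.86 (SE 0.14, edgeR adjusted p = 1.92e-07). Tfam, which packages mitochondrial DNA and starts its transcription, fell by 1.02, and the DNA polymerase Polg rose by 0.64. Of 17 genes of mitochondrial fusion, fission and turnover, 2 rose and 8 fell, with a median of -0.50. Under library size scaling 4 rose and 6 fell, and with no replicate block 0 rose and 5 fell. In cells limited to 2500 to under 6000 UMIs, 0 of 15 rose and 8 fell. The median was -0.44 without GL261 replicate 1 and -0.68 without GL261 replicate 2. The fusion protein Opa1 was at 0.53, a rise not called with no replicate block, and the fission protein Fis1 was at -1.52.

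**Figure D3:**
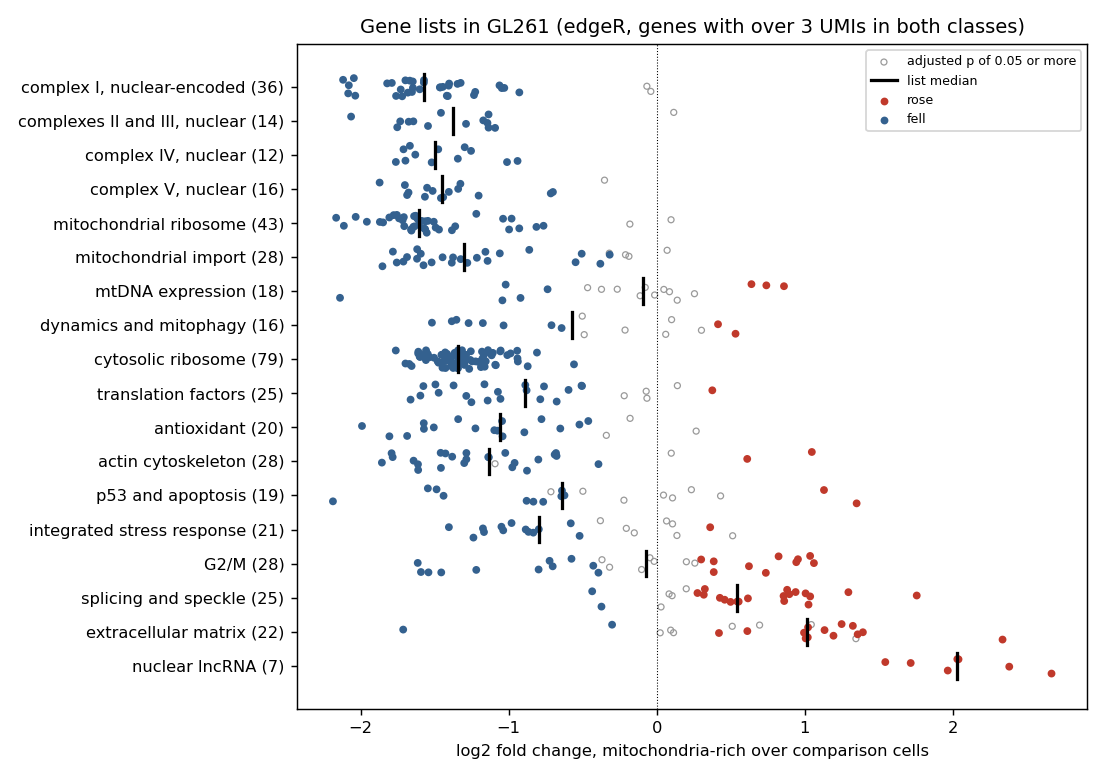
Each point is a gene of a list (y axis, number of genes with over 3 UMIs in both classes in brackets) at its fitted log2 fold change between mitochondria-rich and comparison GL261 cells (x axis); filled points passed an adjusted p of 0.05, and bars are list medians. The lists of nuclear-encoded complexes I to V, the mitochondrial ribosome, import and the cytosolic ribosome lie mostly left of 0 with medians between -1.61 and -1.30, the speckle and extracellular matrix lists mostly right of 0. The nuclear noncoding RNAs drawn lie between 1.54 and 2.67. The limit of 3 UMIs left out Airn, at -0.056, and genes could pass the low count filter through the class where they are high. The bar of the noncoding list is therefore no result. That of the extracellular matrix list covers only genes that passed the filter, and with no low count filter its median was 0.47.

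All 79 cytosolic ribosomal protein genes tested fell, with a median of -1.34 and a range from -1.76 to -0.56. Their summed share was 10.9% and 7.61% of UMIs in the mitochondria-rich cells, against 16.7% and 16.2% in the comparison cells and 17.5% and 19.2% in free RNA. Most cells lay lower than these sums, with a median per cell of 5.01% and 4.82%, and a minority described further on lay above the comparison cells. Rpl11 of the large subunit was at 714 and 613 CPM against 2149 and 2150 and fell by 1.70 (SE 0.13, edgeR adjusted p = 7.35e-23). These genes have many near-identical pseudogene copies, so that single values are uncertain. Of 25 translation factors, 20 fell and 1 rose (Eif3a, a scaffold of an initiation complex, by 0.37), with a median of -0.89, and under library size scaling 16 fell and 5 rose. Eif4ebp1, an inhibitor of cap-dependent translation, was at 155 and 166 CPM against 450 and 511 and fell by 1.58 (SE 0.11, edgeR adjusted p = 1.28e-24).

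The largest falls among well measured genes, leaving out ribosomal proteins and predicted genes, included small proteins of many functions. S100a10 (chromosome 3, 93555080 to 93564643, plus strand), a calcium-binding family member that pairs with an annexin, was at 365 and 418 CPM against 1575 and 1861, with 1498 and 1920 CPM in free RNA. It fell by 2.13 (SE 0.12, edgeR adjusted p = 1.15e-33), so the mitochondria-rich cells lay below both the comparison cells and free RNA. Lamtor4 and Lamtor5, subunits of the complex that anchors mTOR signalling on lysosomes, fell by 2.32 and 2.22. Lamtor4 was at 36.4 and 30.9 CPM against 164 and 175, and Lamtor5 at 19.7 and 27.3 against 107 and 111. Magohb of the exon junction complex fell by 2.22, Tmem242 by 2.18, Scand1 by 2.17, and Sdhaf4, an assembly factor of complex II, by 2.17. Ptgds, a prostaglandin synthase, met that level through the GL261-GSCs libraries. In GL261 it had 2 thinned UMIs in the mitochondria-rich cells and 86 in the comparison cells, a ratio of 0.216 with a 95% exact counting interval from 0.0257 to 0.803. The libraries differed, with 2 UMIs against 28 in replicate 1 and 0 against 58 in replicate 2, and without replicate 2 the fitted log2 fold change of Ptgds was -1.20 in place of -2.54 (edgeR adjusted p = 0.33).

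Among the largest rises outside the noncoding RNAs, Fbn1 (chromosome 2, 125300594 to 125507993, minus strand), a fibrillin of extracellular microfibrils, was at 157 and 169 CPM against 35.0 and 41.8, with 19.3 and 13.4 CPM in free RNA. It rose by 2.09 (SE 0.13, edgeR adjusted p = 8.54e-29). Nkain2, a membrane protein that binds a sodium pump subunit, was at 163 and 156 CPM against 45.1 and 32.7 and rose by 2.04 (SE 0.14, edgeR adjusted p = 2.10e-25). Both genes were higher in the mitochondria-rich cells of both libraries without overlap. Of the 10 largest rises 4 had few UMIs in GL261 and met the level needed for naming through the GL261-GSCs libraries. Zfp773, a zinc finger gene, had 20 and 26 thinned UMIs in the 2 classes, and Sema6a, a semaphorin, had 30 and 42, of which 27 and 33 were in replicate 1. Cadm2, an adhesion molecule, had 4 and 4 UMIs, a ratio of 9.27 with a 95% exact counting interval from 1.73 to 49.8. Mmp16, a membrane metalloproteinase, had 5 and 7, a ratio of 6.62 with an interval from 1.66 to 24.2.

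Messenger RNAs of splicing factors and speckle proteins rose in 19 of 25 genes and fell in 2, with a median of 0.54. Over all genes tested 21.1% rose and 26.9% fell. Ogt, the enzyme that adds O-GlcNAc and whose RNA is known to keep introns in the nucleus, was at 194 and 228 CPM against 63.8 and 60.7 and rose by 1.76 (SE 0.12, edgeR adjusted p = 3.46e-26). The splicing kinase Clk1 rose by 1.29, Nktr by 1.04, Rbm25 by 1.02 and the speckle protein Son by 0.94. The falls were Srsf7, at -0.44, and Srsf6, at -0.37, both splicing factors of the SR family, and 0 genes of the list fell under library size scaling.

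Of 32 listed extracellular matrix genes 24 passed the filter on low counts, which a gene can pass through the class where it is high. Of these 13 rose and 2 fell, against 21.1% and 26.9% of all genes tested. Their median was 0.9996, or 1.012 over the 22 with more than 3 UMIs in both classes. With no low count filter 31 were tested, 12 rose and 2 fell, and the median was 0.47. With no replicate block 5 rose and 1 fell. The summed share of all 32 listed genes was 1.44% and 2.01% of UMIs against 0.780% and 0.949%, with 0.547% and 0.460% in free RNA. The largest rise was Spp1, the secreted phosphoprotein osteopontin, at 2.33 on 25 and 35 UMIs. Among well measured members Col1a1, a fibrillar collagen, rose by 1.39, Fn1 (fibronectin) by 1.36, the laminin chain Lamb1 by 1.32 and Thbs1 (thrombospondin) by 1.19. Timp1, a metalloproteinase inhibitor, was at 245 and 261 CPM against 802 and 858 and fell by 1.71 (SE 0.10, edgeR adjusted p = 2.82e-30). Actin cytoskeleton genes fell in 24 of 28 cases and rose in 2, with a median of -1.14, and their share was 1.76% and 2.03% of UMIs against 2.86% and 3.12%. Tagln2, an actin-binding transgelin, fell by 1.86, Pfn1 (profilin) by 1.78 and Actb by 1.46. The exceptions that rose were Vcl (vinculin), by 1.05, and Flna (filamin), by 0.61.

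Genes of mitosis moved both ways. Of 28 G2/M genes 10 rose and 11 fell, with a median of -0.07, against 21.1% and 26.9% of all genes tested. Under library size scaling 15 rose and 5 fell, with a median of 0.41, against 5202 and 2035 of all 13459 genes. Cenpf and Cenpe, kinetochore proteins, rose by 1.06 and 1.04, the proliferation marker Mki67 by 0.94 and the topoisomerase Top2a by 0.82. Ube2c, a ubiquitin-conjugating enzyme of mitotic exit, was at 196 and 271 CPM against 626 and 796 and fell by 1.61 (SE 0.12, edgeR adjusted p = 4.00e-24), and Birc5, Cks2 and Cdk1 fell by 1.59, 1.54 and 1.46. The median annotated transcript length was 3487 bases for the 10 that rose and 1579 for the 11 that fell. Of 28 G1/S genes 1 rose and 16 fell (median -0.39), against 4 and 5 under library size scaling (median 0.10) and 1 and 4 with no replicate block, with Tyms, which makes thymidylate, falling by 1.08. Among cells of 2500 to under 6000 UMIs 0 of the 28 passed.

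Stress and death genes were mixed or lower on the TMM scale, where 21.1% of all genes tested rose and 26.9% fell. Of 20 tested genes of p53 and apoptosis, 2 rose and 10 fell, with a median of -0.64, and under library size scaling 5 rose and 5 fell, with a median of -0.16. The rises were Apaf1, the caspase-activating scaffold, by 1.13, and Bcl2l11, a death-promoting BCL family gene, by 1.35 on 17 and 45 UMIs. Cdkn1a, the cell cycle inhibitor induced by p53, fell by 0.83, Bax by 1.55 and Phlda3 by 1.49. Of 21 genes of the integrated stress response, 1 rose and 13 fell (median -0.80), or 5 and 8 under library size scaling and 0 and 7 with no replicate block. Psat1 of serine synthesis was at 134 and 144 CPM against 289 and 371. Of 20 antioxidant genes 17 fell and 0 rose (median -1.06), or 13 and 2 under library size scaling and 11 and 0 with no replicate block. Gpx4, which reduces lipid peroxides, was at 281 and 280 CPM against 1032 and 1213. Of 10 heat shock genes 6 fell and 1 rose (median -0.51). Under library size scaling 3 fell and 4 rose (median -0.02), where 2035 of all 13459 genes fell and 5202 rose. Cryab, a small heat shock protein, was among the most abundant, at 1817 and 1988 CPM against 6911 and 8129, and fell by 1.98 (SE 0.13, edgeR adjusted p = 1.24e-26). In the last 2 genes named the classes did not overlap.

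The direction of a gene went with the length of its transcripts. For the 11569 protein-coding genes tested, the median log2 fold change was -0.78 in 1065 genes with a median annotated transcript under 750 bases and -0.77 in 2626 genes from 750 to under 1500. It was -0.15 in 4109 genes from 1500 to under 3000, 0.28 in 3104 genes from 3000 to under 6000, and 0.72 in 665 genes of 6000 bases and over. Of the shortest set 12.5% rose and 52.9% fell, and of the longest 60.6% rose and 2.56% fell. The same direction was seen in each library alone, with medians of -0.69 and -0.80 for the shortest set and 0.65 and 0.64 for the longest. Under library size scaling the medians ran from -0.30 to 1.20.

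**Figure D4:**
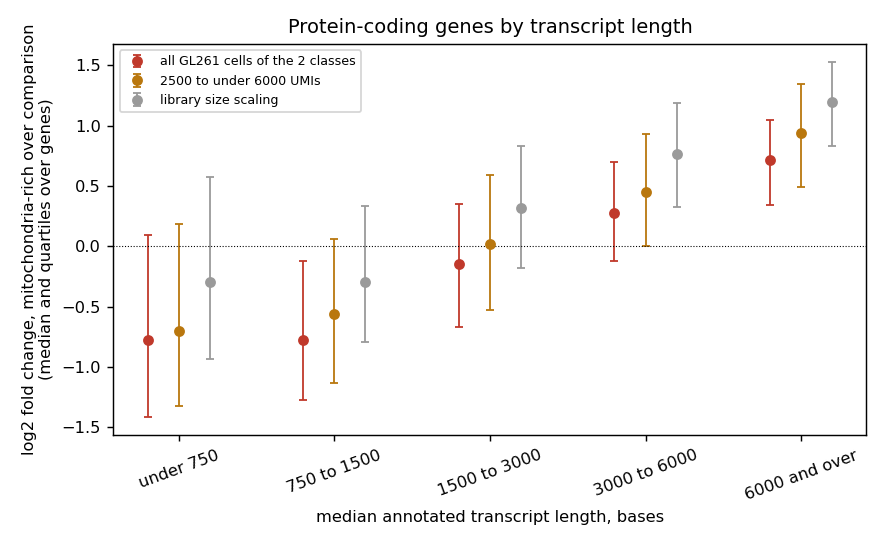
Median log2 fold change (y axis, whiskers are the quartiles over genes) of protein-coding genes between mitochondria-rich and comparison GL261 cells in 5 ranges of median annotated transcript length (x axis, bases). It runs from -0.78 in the shortest to 0.72 in the longest range (red), and also climbs among cells of 2500 to under 6000 UMIs (ochre) and under library size scaling (grey).

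Length moved with the gene lists, and its part in their differences was only described. The nuclear-encoded complex I genes had a median transcript of 733.5 bases, the cytosolic ribosomal proteins 696.5 and the extracellular matrix genes 4240, against 2190 for all protein-coding genes tested. Set against the median of genes in the same length range, complex I genes had a median of -0.79, with 34 of 36 below it, and mitochondrial ribosomal proteins of -0.87, with 41 of 43 below. Cytosolic ribosomal proteins had a median of -0.58, with 78 of 79 below. The 24 extracellular matrix genes that passed the filter on low counts had a median of 0.68, with 21 above. A gene can pass that filter through the class where it is high, so these values describe those genes and not the whole list. Speckle genes had a median of 0.70, with 20 of 25 above. For the G2/M list the median was -0.0019, with 14 genes below and 14 above.

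Among the mitochondria-rich cells the profile changed with the mt- share itself. From 3% to under 4%, Malat1 stood at 11417 and 12782 CPM (without TMM scaling); from 4% to under 6% it stood at 21163 and 23912, and from 6% to under 10% at 25986 and 31162. Cytosolic ribosomal proteins took 17.5% and 12.5%, then 10.4% and 8.02%, then 5.73% and 4.80% of UMIs over the same ranges. Nuclear-encoded complex I took 0.626% and 0.582%, then 0.402% and 0.396%, then 0.308% and 0.257%. Both libraries thus kept the same order in all 3 measures. Below the mitochondria-rich range, cells with 2% to under 3% mt- share had 7223 and 7062 CPM of Malat1, between the comparison cells and the 3% to 4% range. Complex I took 0.823% and 0.825% of their UMIs, also between. The ribosomal share did not lie between: it was 22.6% and 17.7%, above the 16.7% and 16.2% of the comparison cells. In replicate 1 the 17.5% at 3% to under 4% was above the comparison cells too. The 57 and 35 cells with 10% and over held 33092 and 30972 CPM.

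**Figure D5:**
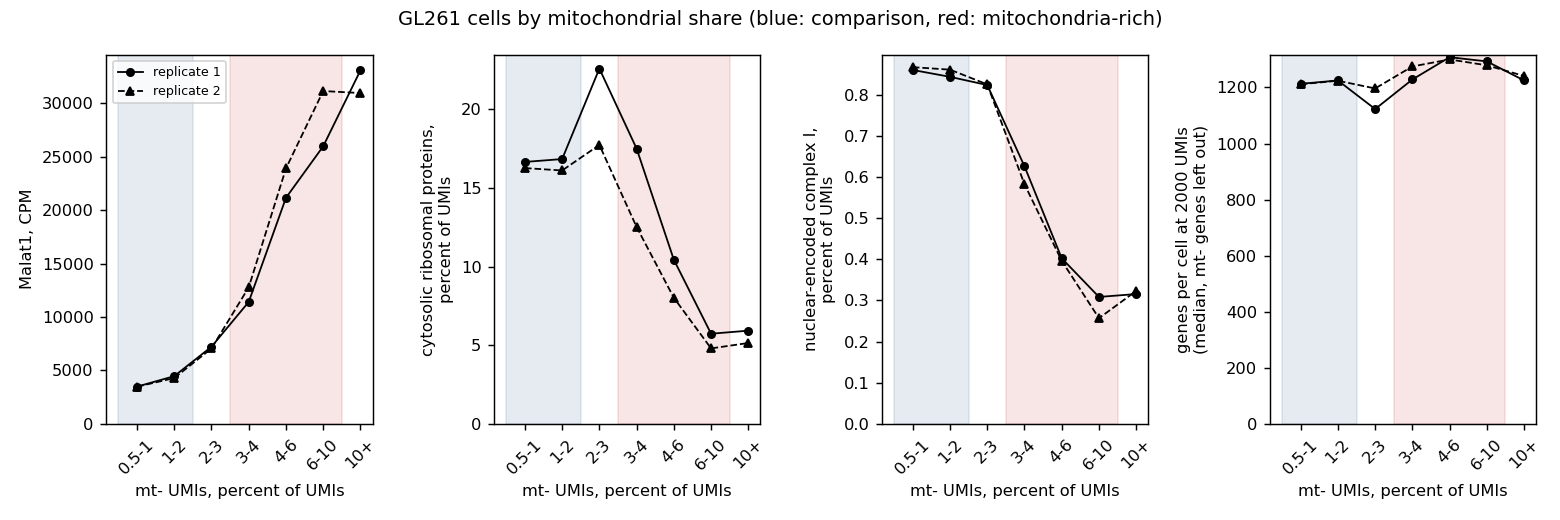
Malat1 level (CPM), share of cytosolic ribosomal proteins and of nuclear-encoded complex I (percent of UMIs) and median genes per cell at 2000 UMIs, by mt- share (x axis, percent of UMIs), for GL261 replicate 1 (circles) and replicate 2 (triangles). Blue bands mark comparison cells and red bands mitochondria-rich cells. Malat1 climbs from 3486 and 3478 CPM at 0.5% to 1% to 25986 and 31162 CPM at 6% to 10%. The ribosomal share is highest at 2% to 3%, at 22.6% and 17.7%, and is 5.73% and 4.80% at 6% to 10%.

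A minority of the mitochondria-rich cells had the opposite ribosomal profile. In 82 cells of replicate 1 (16.98%) and 25 of replicate 2 (6.51%) the cytosolic ribosomal share was above the 95th percentile of the comparison cells, while 73.1% and 84.6% lay below the 5th. Most of the former lay at the lower end of the mt- range: 47 of 134 cells at 3% to under 4% and 3 of 159 cells at 6% to under 10% in replicate 1, and 15 of 85 and 0 of 173 in replicate 2. At 3% to under 4% they held a median of 10 and 5 Malat1 UMIs at 2000 UMIs, against 22 and 17.5 in the other cells of that range. They also had fewer genes, with medians of 837 and 957 against 1300 and 1295. With cells of fewer than 1000 genes at that depth left out of both classes, a limit chosen after these values were seen, 414 and 370 mitochondria-rich cells remained, 6564 genes were called in place of 6468, and the ribosomal median was -1.81 in place of -1.34.

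The classes were also compared at like depth before thinning, among cells of 2500 to under 6000 UMIs, which left 288 and 285 mitochondria-rich and 188 and 168 comparison cells in GL261. The 5th percentile of depth in all comparison cells was 6087 and 6453 UMIs, so the window holds only the shallowest of them. Of 9523 genes tested, 1037 rose (10.9%) and 1450 fell (15.2%), and 2370 of these 2487 calls had the same direction among the 6468 calls of the whole set. Malat1 was higher by 1.34, Neat1 rose by 1.75 and Kcnq1ot1 by 1.38. Fbn1 rose by 3.35, and whether this differs from the 2.09 in all cells was not tested. Of the 21 extracellular matrix genes that passed the filter on low counts 13 rose and 1 fell. Nuclear-encoded complex I fell in 33 of 36 genes (median -1.44) and cytosolic ribosomal proteins in 78 of 79 (median -1.37). Fewer calls were made in other lists, on fewer cells: 8 of 25 speckle genes rose in place of 19 (median 0.60 against 0.54 in all cells), and 17 of 28 chaperones and import components fell in place of 24 (median -1.14 against -1.30). S100a10 fell by 1.92. Dleu2, at 0.87, and Tyms, at -0.45, did not pass in this window and were nearer 0 than in all cells. Zfp773 at 1.56, Sema6a at 1.63, Cadm2 at 4.15, Mmp16 at 4.98 and Ptgds at -3.24 did not pass either, and Gm47624 was at 1.07.

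Mitochondria-rich cells were less frequent in GL261 than in GL261-GSCs. They made up 9.66% and 7.58% of GL261 barcodes, against 16.0%, 11.7%, 25.1% and 30.0% in GL261-GSCs replicates 1 to 4. The means were 8.62% ± 1.47 (SD, n = 2) and 20.7% ± 8.34 (SD, n = 4), and the groups did not overlap. The exact permutation p was 0.133 (2-sided), the smallest that 2 against 4 libraries allow, so this design cannot pass 0.05. Depth differed between libraries, and the groups overlapped: comparison cells had median depths of 16725 and 14342 UMIs in GL261 and 16892, 12685, 12536 and 9596 in GL261-GSCs. Its part in the shares was described only through other UMI limits. From 2500 to under 6000 UMIs the shares averaged 39.5% ± 5.90 (SD, n = 2) and 58.4% ± 6.11 (SD, n = 4). With at least 5000 UMIs they averaged 4.52% ± 2.16 and 12.7% ± 4.30, and with at least 1000 UMIs 7.36% ± 0.586 and 15.2% ± 5.38 (SD, same n).

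The difference between mitochondria-rich and comparison cells was itself compared between the cultures, as the interaction in the same fit. In GL261-GSCs 5102 genes rose (37.9%) and 4350 fell (32.3%) in the mitochondria-rich cells, on 4 libraries. The difference between cultures passed for 628 genes (4.67%). Cytosolic ribosomal proteins accounted for 56 of them, with a median of -1.34 in GL261 and -2.03 in GL261-GSCs, where all 79 fell too. Without cells of fewer than 1000 genes 14 of the 79 still differed, without GL261 replicate 1 it was 10, and among cells of 2500 to under 6000 UMIs 0. Malat1 had a log2 fold change of 2.04 in GL261 and 1.38 in GL261-GSCs, Neat1 rose by 2.67 and 1.92, and Ogt by 1.76 and 1.19. For Ogt the difference was 0.57 (SE 0.14, edgeR adjusted p = 0.0060) and for Neat1 0.75 (SE 0.16, edgeR adjusted p = 0.0014), each larger in GL261. Both were named for their change in GL261, a choice that favours this direction. Genes of complex I differed in 12 of 36 cases, of complexes II and III in 5 of 14, and of complex IV in 1 of 12. For complex V it was 7 of 16, and for the endoplasmic reticulum and secretion 14 of 28. The complex I count was 3 with members from 4% and 3 without cells of fewer than 1000 genes. Without GL261 replicate 1 the complex I medians were -1.75 in GL261 and -1.85 in GL261-GSCs, in place of -1.57 and -1.82. Among cells of 2500 to under 6000 UMIs 0 genes differed in all, and with no replicate block also 0. Of the named genes, S100a10, Lamtor5, Uqcrb and Atp5g3 fell in both cultures, with differences between cultures of 0.26, 0.0025, 0.0074 and 0.0015 on the log2 scale and adjusted p-values from edgeR of 0.37 or more.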

How the data were processed

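Single-cell RNA was measured in 2 GL261 and 4 GL261-GSCs libraries. The deposited matrices hold UMI counts of every barcode, unfiltered, from Cell Ranger 4 (per the file headers) and build mm10 (per the submitters' processing notes); library totals ran from 80899005 to 121309232 UMIs. Of 54446 gene identifiers 99.9% matched GENCODE M21 (GRCm38) without version, and 94 symbols that occur more than once stand for their identifier of highest UMI count. The members and gene lists were chosen with earlier results of these data known. Cells were thinned to 2000 UMIs, the 37 mt- genes were left out, and counts were summed per library and class. edgeR 4.0.16 in R 4.3.3 (glmQLFit and glmQLFTest, TMM, filterByExpr, Benjamini-Hochberg adjustment, 2-sided) was fitted on the 12 sums with the library as a block, since both sums of a library come from the same sample, and with class by culture. The block pairs sums within a library; replicate numbers were not used to pair cultures. The SE is the absolute log2 fold change over the square root of F. Class CPM are TMM-scaled. Named genes had an adjusted p below 0.05, a fitted log2 CPM of 5 or more and 1 sign in both GL261 libraries; predicted and ribosomal genes were left out, and the 10 largest changes in each direction were taken, plus Malat1, Gm47624 and the gene with the smallest p of each list. Intervals are exact (95%) and cover counting error only. Doublets were not removed. Single values used exact permutation tests in Python 3.11.15. On simulated counts of 12776 genes the fit recovered 66 of 100 changes of log2 size 1 and 78 of 100 of size 2. Of 148 calls 4 were false, and 6 interaction calls were false. The simulation had a common spread for all genes and few changed genes, unlike these data, so it does not give their error rates. Alternatives covered scaling, tool (DESeq2 1.42.0), filter, thinning, depth, class limits, block and left-out libraries.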

Additional observations from a re-analysis of the deposited data

Results flagged for a closer look

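For 5 of the 44 named genes, the difference between mitochondria-rich and comparison cells differed between GL261 and GL261-GSCs in the interaction test of edgeR. On the log2 scale, GL261 minus GL261-GSCs, it was 0.75 for Neat1, 0.63 for Dleu2 (edgeR adjusted p = 0.046), 0.47 for Kcnq1ot1 (edgeR adjusted p = 0.029), 0.57 for Ogt and 1.22 for Sema6a (edgeR adjusted p = 0.032). These 5 rises were larger in GL261, a direction that the naming favours. Neat1, Dleu2, Kcnq1ot1 and Sema6a were named as large rises in GL261, and Ogt by its p there. The same GL261 values enter the difference, so its direction is given as a description. Over all genes tested 4.67% differed between the cultures. For Malat1, a marker chosen on these cells, the same difference was 0.65, given as a description with no p. Over the 21 alternatives Neat1 kept its call in 17, with adjusted p-values from edgeR or DESeq2 from 7.0e-07 to 0.93. Ogt kept it in 15 (0.0011 to 0.91), Sema6a in 12 (0.0055 to 0.999), Kcnq1ot1 in 11 (0.0015 to 0.98) and Dleu2 in 9 (9.8e-04 to 0.94). None of the 5 passed among cells of 2500 to under 6000 UMIs or without the library block. Sema6a rests on 30 thinned UMIs of GL261 mitochondria-rich cells, 27 of them in replicate 1, and its 2 classes overlap between the GL261 libraries.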

How the results depend on the processing

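The count of 6468 genes called in GL261 stayed within 1.5 times under 20 of 22 alternatives, and 0 of those genes were called in the opposite direction except 2 under library size scaling. It was 2487 among cells of 2500 to under 6000 UMIs, which also leaves fewer cells and genes tested, and 3889 with no replicate block, that is without pairing the 2 sums of a library; leaving out 1 library gave 4734 to 6572, the lowest without GL261 replicate 1. The 628 genes that differed between the cultures were less stable. DESeq2 gave 310, no thinning 1928, at least 5000 UMIs 273, a member limit from 4% 239, and at least 1000 genes per cell, added after seeing the data, 325. Among cells of 2500 to under 6000 UMIs and with no replicate block the count was 0, with 844 and 724 genes at an unadjusted p under 0.05 in edgeR. Leaving out 1 library gave 112 (without GL261 replicate 1) to 656, and 338 without GL261 replicate 2. The cause was not tested. Members showed fewer genes without thinning (a mean difference of -1647), and leaving out 1 library gave 107 to 129 more genes with an exact permutation p of 0.0625, the smallest 5 pairs allow. The share difference between cultures, -12.1 percentage points, kept its sign in all 11 alternatives. Named genes kept their call in 931 of 966 results; Cadm2, Mmp16 and Ptgds, with few UMIs, lost it most often, and Cryab, Zfp773 and Sema6a with no replicate block. Limits: GL261 has 2 libraries and the fit borrows the spread of the other 4; an SE from F can look too precise for genes with few UMIs; at 2000 UMIs per cell, genes of a few CPM rest on single-digit counts in the mitochondria-rich sums.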

Other observations

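Other gene groups were mixed in the mitochondria-rich GL261 cells. Of 20 immediate early genes 4 rose and 7 fell in GL261, against 21.1% and 26.9% of all genes tested. Without GL261 replicate 1 it was 1 and 8, and with no replicate block 1 and 2. In GL261-GSCs, on 4 libraries, 0 rose and 16 fell, against 37.9% and 32.3% of all genes; the medians were -0.32 and -0.37, and 2 of the 20 genes differed between the cultures in the interaction test. Fos, a subunit of the AP-1 transcription factor, rose by 0.62 in GL261 and was at -0.33 in GL261-GSCs, while Jund of the same factor fell by 1.63 in GL261, and the matrix-linked growth factor Ctgf rose by 0.50. Of 28 genes of the endoplasmic reticulum and secretion 4 rose and 13 fell, among them Spcs1 of the signal peptidase, which fell by 1.66. The summed share of the 28 genes went the other way, at 1.34% and 1.53% of UMIs against 1.07% and 1.09% in the comparison cells. Of 20 lysosome genes 4 rose and 7 fell, shares near those over all genes, with the proton pump subunit Atp6v0c falling by 1.79. With no replicate block 1 lysosome gene rose and 5 fell. The medians of these 3 lists in GL261, -0.32, -0.19 and -0.08, were above 0 under library size scaling (0.15, 0.29 and 0.41), where 8 rose and 3 fell, 13 rose and 7 fell, and 11 rose and 3 fell. Among cells of 2500 to under 6000 UMIs 9 genes of the endoplasmic reticulum list rose and 6 fell. Of 21 genes of glycolysis and hypoxia 1 rose and 11 fell (median -0.57), or 5 and 8 under library size scaling and 0 and 1 with no replicate block, and Gapdh was at 755 and 534 CPM against 2008 and 1668.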
